A study of Mus musculus with 20 samples.

Results

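The genes described here are 9 genes of white and brown fat cells, *Adipoq*, *Plin1*, *Cfd*, *Lep*, *Retn*, *Cidec*, *Cidea*, *Ucp1* and *Pparg*, taken from a table of 55401 mouse genes by their gene symbols. All 9 had a row in the table. They were followed in every library of a study that compared wild-type (WT) mice with *Nsun6* knockout (KO) mice in 5 organs, which were the heart, kidney, spleen, liver and small intestine. Both groups were on the C57BL/6J background and, per the methods of the study, were females of 8 weeks. The KO mice carried a CRISPR/Cas9 deletion of exons 3 and 4 of *Nsun6*, an RNA cytosine methyltransferase, and were homozygotes from crosses of heterozygous mice. No further allele or treatment was named, and whether several organs came from one animal was not stated. Each organ and genotype had 2 libraries, 20 in all, made from RNA of frozen, ground organs. No adipose tissue was sequenced. The total counts per library ranged from 15897446 to 44508197 with a median of 28513950. The study calls its replicates biological but names no animal for any library, and the labels name none either, so the p-values measure the spread between these libraries.

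Adipocytes store triglyceride in lipid droplets and secrete hormones. White fat cells, which hold 1 large droplet, secrete adiponectin (*Adipoq*), leptin (*Lep*), resistin (*Retn*) and adipsin (*Cfd*, complement factor D). Perilipin 1 (*Plin1*) coats the droplet and CIDEC (*Cidec*) promotes its growth. Brown fat cells burn fuel for heat through the mitochondrial uncoupling protein UCP1 (*Ucp1*) and use CIDEA (*Cidea*) as their droplet protein. PPARG (*Pparg*) is the nuclear receptor that drives adipocyte differentiation, and its use extends beyond fat to intestinal epithelium and macrophages. Fat lies against many organs, as around the kidney and the great vessels of the heart and in the mesentery of the gut, so that a dissected organ can carry a variable amount of it. In bulk RNA a lower value from fewer fat cells and one from less RNA per fat cell cannot be told apart.

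In GRCm38, *Adipoq* (ENSMUSG00000022878) lies at chr16:23146536-23158028 on the plus strand, *Plin1* (ENSMUSG00000030546) at chr7:79720218-79732903 on the minus strand and *Cfd* (ENSMUSG00000061780) at chr10:79890853-79892655 on the plus strand. *Lep* (ENSMUSG00000059201) lies at chr6:29060220-29073877 on the plus strand, *Retn* (ENSMUSG00000012705) at chr8:3655770-3660110 on the plus strand and *Cidec* (ENSMUSG00000030278) at chr6:113424634-113435760 on the minus strand. *Ucp1* (ENSMUSG00000031710) lies at chr8:83290352-83298452 and *Pparg* (ENSMUSG00000000440) at chr6:115360951-115490399, both on the plus strand. The counts are sums over all exons of a gene, UTRs included. None of the 9 shares an exon base with another gene.

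The bases in front of 3 start sites are shown because these genes represent adipocytes in general (*Adipoq*), brown adipocytes (*Ucp1*) and white adipocytes (*Lep*). Each is the 250 bases before the RefSeq start in GRCm38.p6, 5′ to 3′ on the plus strand, at chr16:23146286-23146535, chr8:83290098-83290347 and chr6:29059971-29060220. Capitals mark matches to 4 motifs searched on both strands, which were the nuclear receptor hexamer AGGTCA, a direct repeat of it with 1 base between, the C/EBP motif TTGCNNAA and the TATA box TATAAA.
Adipoq: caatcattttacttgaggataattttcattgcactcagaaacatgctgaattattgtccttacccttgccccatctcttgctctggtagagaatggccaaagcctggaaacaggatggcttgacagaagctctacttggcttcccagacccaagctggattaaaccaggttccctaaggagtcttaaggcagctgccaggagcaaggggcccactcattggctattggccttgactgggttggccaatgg
Ucp1: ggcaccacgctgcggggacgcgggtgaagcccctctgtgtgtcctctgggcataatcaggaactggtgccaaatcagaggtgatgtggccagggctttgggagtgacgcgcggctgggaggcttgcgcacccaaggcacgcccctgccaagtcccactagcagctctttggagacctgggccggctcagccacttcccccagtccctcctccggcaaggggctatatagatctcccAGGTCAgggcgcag
Lep: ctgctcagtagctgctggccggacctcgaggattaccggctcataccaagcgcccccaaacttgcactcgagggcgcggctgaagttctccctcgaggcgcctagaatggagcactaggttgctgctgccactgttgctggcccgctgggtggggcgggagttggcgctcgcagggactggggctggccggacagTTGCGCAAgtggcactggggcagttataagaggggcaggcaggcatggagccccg
The *Adipoq* stretch held none of the 4 motifs. The *Ucp1* stretch held the hexamer 14 bases before the start, and that of *Lep* a C/EBP match 55 bases before the start, which reads the same on both strands. Of the 9 genes, 8 had a window from 250 bases before to 50 after a start, with 11 windows among them. The hexamer was in windows of 2 genes (*Ucp1* and *Pparg*), the C/EBP motif in 4 (*Lep*, *Cidec*, *Pparg* and *Plin1*), the TATA box in 1 (*Pparg*) and the direct repeat in 0. Over all 32851 windows of the annotation, 16.3%, 10.8%, 13.6% and 0.0396% held these motifs in the same order, and a match describes letters only.

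The labels of the organs were checked against genes of each organ. Levels are counts per 1000000 counts of the library (CPM), with each library total rescaled by TMM normalization unless library totals are named. *Myl2* of ventricular muscle ran from 15390 to 35050 CPM in the heart and *Alb* from 152900 to 312600 in the liver. *Umod* ran from 901 to 2328 CPM in the kidney, *Vil1* from 1376 to 1826 in the small intestine and *Cd79b* of B cells from 517 to 817 in the spleen. Several libraries stood apart. The library of spleen WT replicate 2 held 2683 CPM of *Alb*, against 3.68, 93.7 and 135.8 in the other spleen libraries. That of small intestine WT replicate 1 held 98.2 CPM of the B cell gene *Ms4a1*, against 0.079, 0.65 and 13.6, and that of small intestine KO replicate 1 held 170 CPM of *Myl2*, against at most 2.22. In the small intestine, both replicates 2 had far more *Alpi*, an enzyme of the enterocyte brush border, with 5005 CPM in WT and 3722 CPM in KO, than replicates 1 with 188.2 and 506.0 CPM. In the kidney, *Slc34a1*, the phosphate transporter of the proximal tubule, had 4200 and 518.2 CPM in WT replicates 1 and 2 and 2740 and 1520 CPM in KO, lowest in WT replicate 2. The library of heart KO replicate 1 had 11.9 CPM of the atrial gene *Myl4*, against 205 to 480 in the other heart libraries. The headers of the count columns of both heart replicates 2 carry a suffix that the other columns lack, and its meaning was not given in the sources used here.

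The level of *Nsun6* is given for WT replicates 1 and 2 and then KO replicates 1 and 2. In CPM, it was 9.82, 6.19, 9.68 and 5.24 for small intestine and 7.23, 4.83, 4.03 and 4.56 for liver. In the same order, spleen libraries had 6.07, 4.36, 4.02 and 6.64, kidney libraries 5.44, 5.83, 3.91 and 3.32 and heart libraries 7.02, 6.65, 5.996 and 5.50. *Nsun6* passed the test in 0 of the 5 organs with edgeR, with log2 fold changes (KO over WT) from -0.67 ± 0.43 (SE) in the kidney to 0.08 ± 0.34 in the spleen. The smallest unadjusted p of these edgeR tests was 0.177, in the kidney. Both KO values lay below both WT values in the liver, kidney and heart, where 16.1%, 9.3% and 8.66% of all genes tested did so. The genotypes overlapped in the small intestine and spleen. The deleted exons, numbered as in the transcript Nsun6-201, make up 190 of the 5006 bases counted for the gene (3.8%), so its count is a weak check of the labels.

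The fat genes differed widely between libraries of the same organ in the heart, kidney, small intestine and spleen, and were at or near 0 in all 4 liver libraries. The sum of *Adipoq*, *Plin1*, *Cfd*, *Lep*, *Retn* and *Ucp1*, which have little other source in these organs apart from *Cfd* and *Retn* of myeloid cells, was 265.8 CPM in heart WT replicate 2, the highest of all libraries, and 74.0 CPM in heart KO replicate 2. It was only 2.86 and 5.77 CPM in heart replicate 1 of WT and KO. In the kidney it was 45.8, 55.5 and 35.9 CPM in WT replicates 1 and 2 and KO replicate 1, but 0.499 CPM in KO replicate 2. In the small intestine it was 55.0 and 33.4 CPM in replicate 1 of WT and KO and 0.555 and 0.412 CPM in replicate 2. The spleen held 21.2 and 5.85 CPM in WT and 45.0 and 38.6 CPM in KO, while the liver had 0 counts in 3 libraries and 16 counts, or 0.589 CPM, in KO replicate 2. The sum was thus under 1 CPM in all 4 liver libraries, both small intestine replicates 2 and kidney KO replicate 2, and between 2 and 6 CPM in both heart replicates 1 and spleen WT replicate 2.

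**Figure D1:**
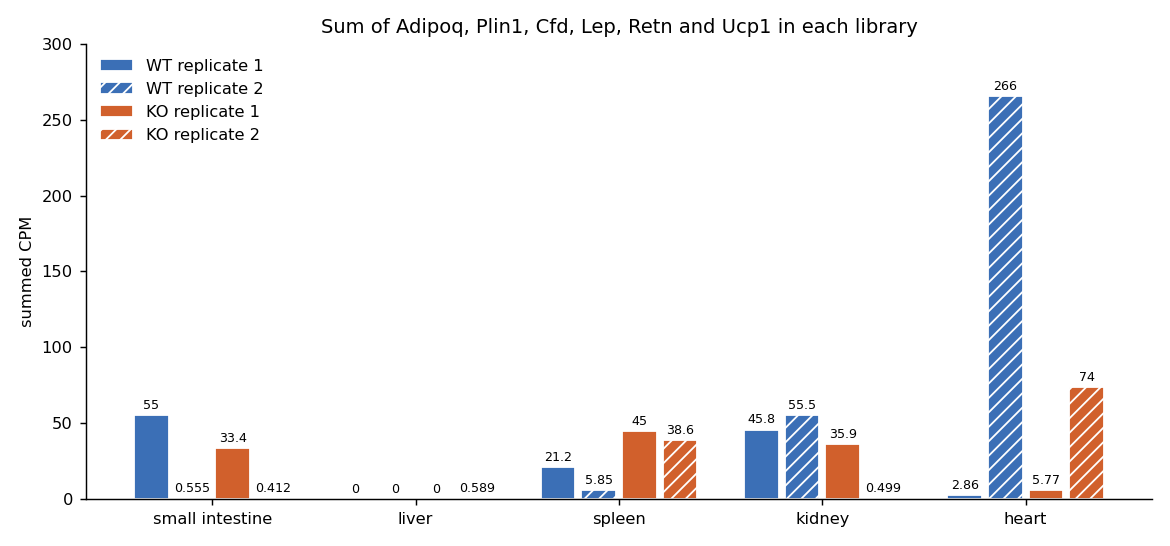
Summed CPM of *Adipoq*, *Plin1*, *Cfd*, *Lep*, *Retn* and *Ucp1* in each of the 20 libraries (linear axis, 1 bar per library, plain bars for replicate 1 and hatched bars for replicate 2). The 265.8 CPM of heart WT replicate 2 stand above every other library, and the liver bars are at 0 or 0.589.

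**Figure D2:**
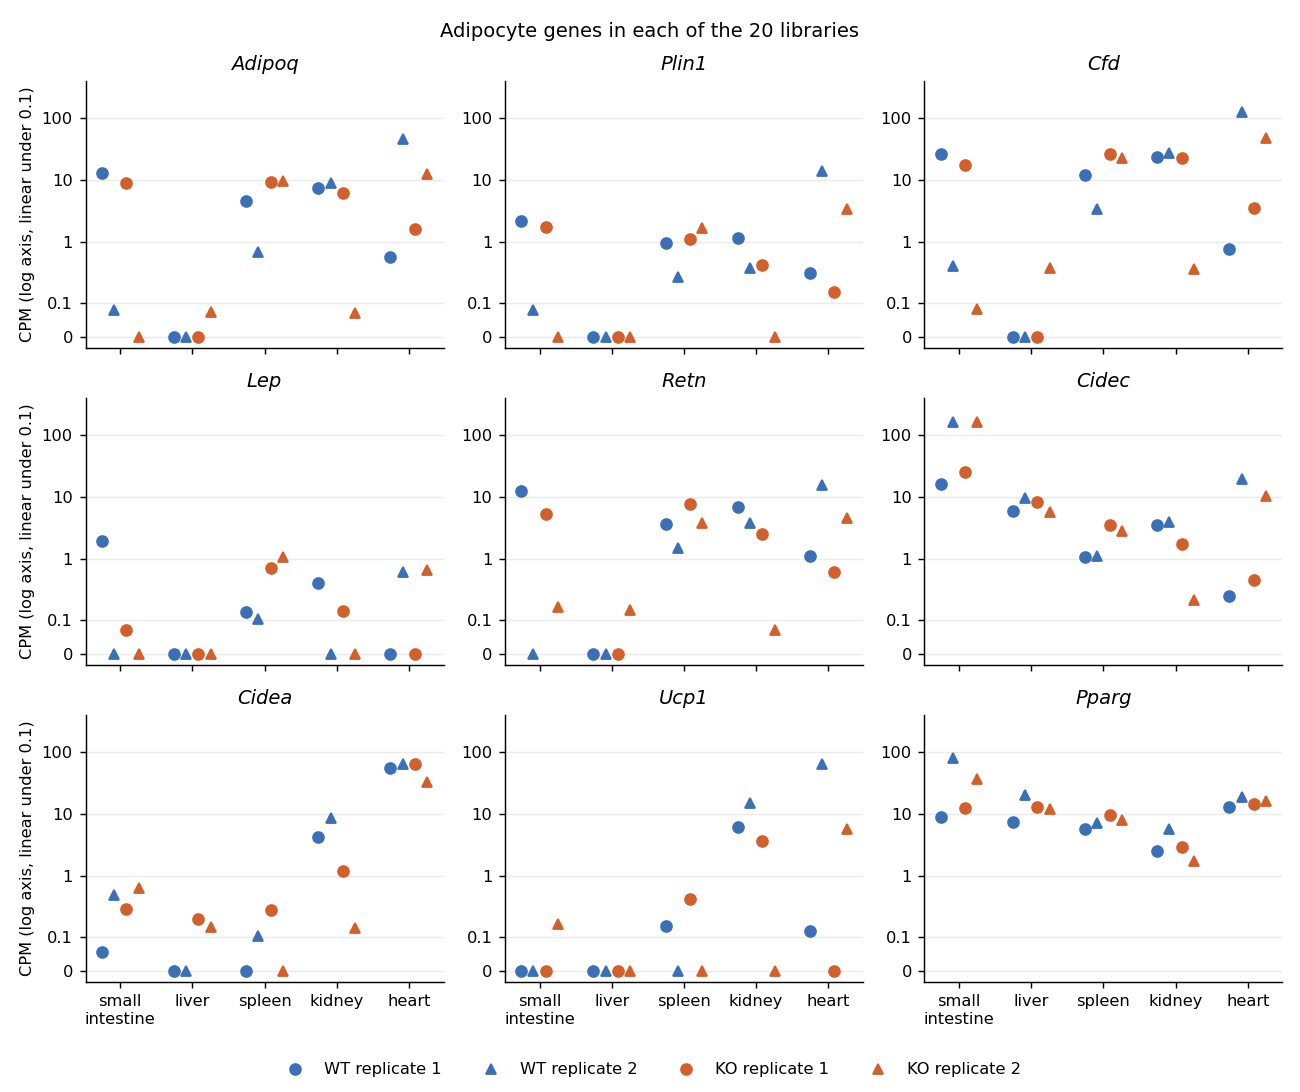
Level of each of the 9 genes (CPM, log axis that is linear under 0.1) in each library by organ, with blue for WT, orange for KO, circles for replicate 1 and triangles for replicate 2. *Adipoq*, *Plin1*, *Cfd* and *Retn* split the heart and the small intestine by replicate in opposite directions, whereas *Cidea* is above 32 CPM in all 4 heart libraries.

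In the heart, the 2 libraries of replicate 2 held far more of *Adipoq*, *Plin1*, *Cfd*, *Lep*, *Retn*, *Cidec* and *Ucp1* than the 2 of replicate 1, in both genotypes, whereas *Cidea* overlapped. The adipokine *Adipoq* had 9 counts in WT replicate 1, 1652 in WT replicate 2, 21 in KO replicate 1 and 529 in KO replicate 2. In CPM these were 0.559, 45.4, 1.57 and 12.5, so that both replicates 2 lay above both replicates 1. *Cfd* had 0.746, 124.7, 3.45 and 47.2 CPM in the same order. It was the most abundant of the 6 fat genes in both replicates 2. The ratio of replicate 2 to replicate 1 in CPM of library totals was 91.3 for *Adipoq* in WT (95% exact interval 48 to 200.1) and 9.59 in KO (6.21 to 15.6). For *Cfd* it was 188.1 in WT and 16.5 in KO. All intervals here cover counting error only. The heart libraries had 17959542 and 36090637 total counts in WT replicates 1 and 2 and 15897446 and 41763236 in KO. Depth was thus higher in both replicates 2, which limits the comparison of raw counts and zeros.

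The other hormones were also higher in both replicates 2. *Retn* had 1.12, 15.8, 0.600 and 4.596 CPM in WT replicates 1 and 2 and KO replicates 1 and 2. *Lep*, the hormone most restricted to white fat, had 0 counts in both replicates 1, and 22 and 28 counts in replicate 2 of WT and KO. Against a floor of 3 counts in replicate 1, *Lep* was at least 3.65-fold higher in replicate 2 of WT and at least 3.55-fold higher in that of KO. The droplet proteins followed them. *Plin1* had 0.311, 14.1, 0.150 and 3.34 CPM and *Cidec* had 0.249, 19.7, 0.450 and 10.1 CPM, so neither overlapped between replicates 1 and 2.

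*Ucp1* had the widest split. It had 2 counts in heart WT replicate 1, 2374 in WT replicate 2, 0 in KO replicate 1 and 239 in KO replicate 2, or 0.124, 65.2, 0 and 5.66 CPM. From 2 counts, the ratio of replicate 2 to replicate 1 in WT was 590.7 (163.3 to 4880), and in KO *Ucp1* was at least 30.3-fold higher in replicate 2. Of the 9 genes, 2 showed no such split. *Cidea* (ENSMUSG00000024526, chromosome 18) was high in all 4 heart libraries with 55.2, 63.4, 65.2 and 32.5 CPM, 1.29-fold higher in replicate 2 of WT and 1.67-fold lower in replicate 2 of KO by library totals, and its replicates overlapped. *Pparg* had 12.7, 18.5, 14.5 and 16.04 CPM, a narrow range in which replicate 2 was above replicate 1 by ratios of 1.63 in WT and 1.33 in KO.

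In the edgeR fit of replicate 2 against replicate 1 with genotype as a covariate, 5 of the 9 genes were called (adjusted p by Benjamini-Hochberg below 0.1, fold above 2), all higher in replicate 2, where 4.88% of the 16632 genes tested were called. The log2 fold changes were 9.05 ± 0.52 for *Ucp1* (adjusted p = 3.31e-12), 5.39 ± 0.47 for *Cidec* (adjusted p = 5.53e-08), 5.17 ± 0.56 for *Plin1* (adjusted p = 7.95e-07) and 3.46 ± 0.44 for *Retn* (adjusted p = 9.44e-06). *Lep* was called with an adjusted p of 0.0458, and its size is given above as a bound. *Adipoq* (4.55 ± 1.15, adjusted p = 0.229) and *Cfd* (5.29 ± 1.60, adjusted p = 0.407) did not pass. *Cidea* (-0.40 ± 0.27) and *Pparg* (0.34 ± 0.26) did not pass either. Both libraries of replicate 2 lay above both of replicate 1 for 8 of the 9 genes, all but *Cidea*, and for 29.8% of all genes tested. *Lep*, *Ucp1*, *Plin1* and *Cidec* had at most 6 counts in each replicate 1 and passed the filter on low counts through replicate 2. Their calls and their lack of overlap thus cannot be set against the shares over all genes. With at least 10 counts in every library, only *Cfd*, *Cidea* and *Pparg* were tested and 0 were called. The fit with the genotype term has 1 residual degree of freedom. Without the genotype term, 6 were called (*Adipoq*, *Plin1*, *Cfd*, *Lep*, *Retn* and *Cidec*), with 818 genes in all, and *Ucp1* did not pass by edgeR (8.94 ± 2.75, adjusted p = 0.199). Fits with a library left out also lack that term. In them only *Cidec* was called without WT replicate 1 (1001 of 18291 genes called) or without KO replicate 1 (512 of 18450). Without WT replicate 2 (972 of 16399) or KO replicate 2 (644 of 16425), 6 were called, with *Ucp1* in place of *Lep*.

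**Figure D3:**
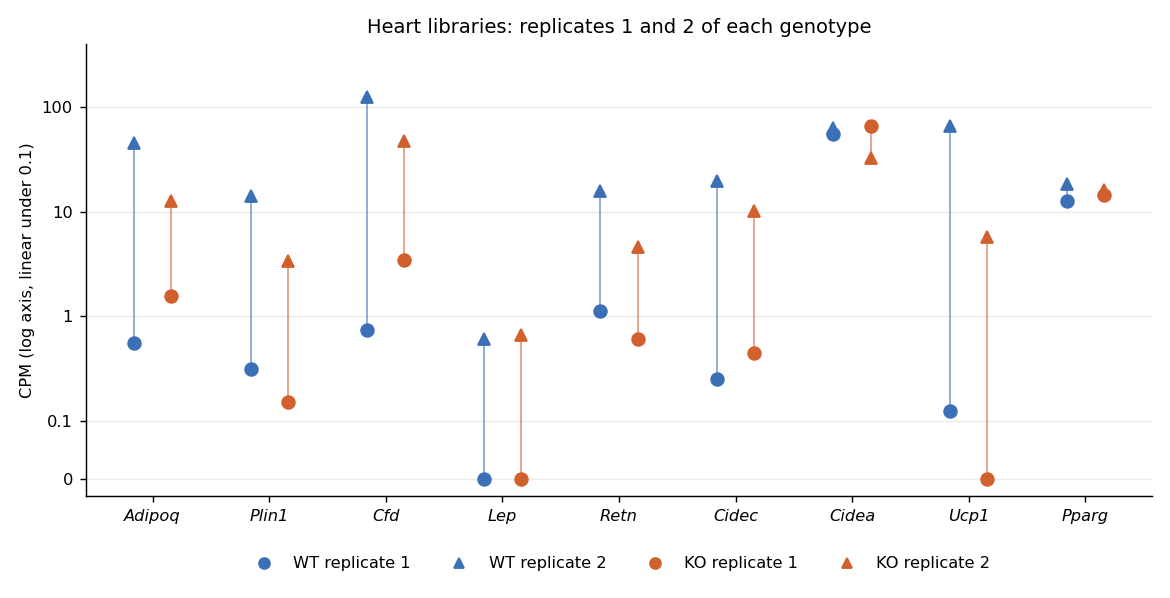
Levels of the 9 genes in the 4 heart libraries (CPM, log axis that is linear under 0.1), with circles for replicate 1, triangles for replicate 2 and a line joining the replicates of 1 genotype. *Ucp1* spans 0.124 to 65.2 CPM in WT and 0 to 5.66 CPM in KO, whereas *Cidea* stays between 32.5 and 65.2 CPM and *Pparg* between 12.7 and 18.5 CPM.

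Lists of further fat genes gave a mixed picture in the same contrast. Of 35 genes shared by white and brown adipocytes, 34 were tested, of which 25 had a value above 0 and 9 below. At the thresholds that 4.88% of all genes passed, 6 were called higher in replicate 2 and 1 lower, with a median log2 fold change of 0.43 against 0.05 over all genes. Among those called higher were *Acvr1c*, *Pck1*, *Acaca*, *Cebpd* and *Plin4*, and the one called lower was *G0s2*, an inhibitor of triglyceride lipase. These and the called genes named from the other lists were picked after their values were seen. *Acvr1c* had 0 counts in both replicates 1 and passed the filter on low counts through replicate 2. *Pck1*, which makes glycerol precursors in fat, had 0.559, 36.5, 0.450 and 6.14 CPM in WT replicates 1 and 2 and KO replicates 1 and 2 (log2 fold change 5.20 ± 0.47), with both replicates 2 above both replicates 1 as for *Adipoq*. The most abundant gene of the list, *Lpl* of lipoprotein hydrolysis, had 6839, 6168, 7882 and 7763 CPM, and the summed list had 15160, 16330, 17710 and 16870 CPM, so its total did not separate the replicates. *Lpl* is also made by heart muscle.

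Among 15 white fat genes, 10 were tested in the heart, of which 6 had a value above 0 and 4 below, with a median log2 fold change of 0.76. Called higher in replicate 2 were *Lep*, *Retn* and *Agt*, and called lower were *Sncg* and *Ccl2*, against 4.88% called of all genes. Without the genes already described, 8 were tested, 1 was called higher and 2 were called lower, and the median turned to -0.05. The most abundant, *Npr3* of natriuretic peptide clearance, had 48.3, 80.6, 47.1 and 49.7 CPM, and the sum was 86.95, 132.5, 92.5 and 86.1 CPM. *Hoxc8*, *Hoxc9* and *Hoxc10*, position genes of subcutaneous white fat, had 0 counts in all 4 heart libraries.

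Of 22 brown fat genes, 15 were tested in the heart, of which 10 had a value above 0 and 5 below. Against 4.88% of all genes, *Ucp1* and *Ppara* were called higher in replicate 2, and *Cox7a1* and *Cox8b*, respiratory chain subunits shared by brown fat and heart muscle, were called lower, with a median of 0.17. *Cox7a1*, the most abundant, had 1214, 477.4, 1394 and 535.3 CPM, and the sum was 2727, 1742, 3259 and 1778 CPM, lower in both replicates 2. *Lhx8* and *Bmp8b* had 0 counts in all 4. The brown fat gene *Zic1* had at most 0.249 CPM, and *Elovl3* 0, 0.110, 0 and 0.095 CPM. Of 12 genes of the stromal cells of fat, 11 were tested, with 6 values above 0 and 5 below. Their median was 0.26, and 0 were called, against 4.88% of all genes. Their sum of 992.9, 1007, 1223 and 911.0 CPM did not separate the replicates.

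Markers of other tissues also differed between these heart libraries. The summed atrial genes were 880, 1573, 107 and 576 CPM in WT replicates 1 and 2 and KO replicates 1 and 2, and 2 of 7 tested were called higher in replicate 2, against 4.88% called of all genes. The ventricular genes summed to 37640, 26100, 43930 and 21400 CPM, with 0 of 6 called. The sums were 39.9, 63.2, 9.67 and 30.7 CPM for airway and lung genes (most abundant *Scgb1a1*), 81.2, 101.0, 19.1 and 52.4 CPM for mesothelial genes (*Upk3b*) and 3.92, 35.2, 5.17 and 4.36 CPM for B cell genes (*Cd79b*). Called higher in replicate 2 were 1 of 6 airway and lung genes, 1 of 7 mesothelial genes and 2 of 6 B cell genes. The values of all 7 atrial, all 7 mesothelial and all 6 B cell genes tested were above 0. Their median log2 fold changes were 2.35, 0.78 and 2.12 in this order. Smooth muscle genes, led by *Des*, which heart muscle also expresses, summed to 1487, 1622, 1625 and 2030 CPM, with 2 of 6 called higher. Thymus genes, summed, had 0.249, 8.99, 0.450 and 0.758 CPM, with *Rag1* at 3.82 CPM in WT replicate 2 and at or under 0.095 CPM in the others. The blood genes summed to 3142, 2236, 5506 and 1056 CPM, lower in both replicates 2, with 1 of 5 called lower. The part of these differences in the split of the fat genes was not tested.

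Between genotypes, none of the 9 genes was called in the heart, where 0% of all genes were called with edgeR. An unadjusted p under 0.05 was reached by 117 of the 16632 genes, and DESeq2 called 3 genes and 0 of the 9. The fitted log2 fold changes of KO over WT were -1.69 ± 1.52 for *Adipoq*, -1.32 ± 1.89 for *Cfd*, -3.43 ± 2.21 for *Ucp1*, -0.30 ± 0.36 for *Cidea* and -0.05 ± 0.31 for *Pparg*. WT and KO overlapped for all 9, and each genotype had 1 library with much fat RNA and 1 with little. Without WT replicate 2 the value of *Ucp1* became 4.50 and that of *Adipoq* 3.66. With the replicate number as a block, *Ucp1* was called (-3.55 ± 0.37, adjusted p = 5.31e-06), a fit that compares 2 pairs of libraries and called 6 of 16632 genes, all lower in KO.

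In the kidney, 3 libraries held white and brown fat genes among the 9, and 1, KO replicate 2, held almost none apart from *Pparg*. *Adipoq* had 7.37 and 9.02 CPM in WT and 6.20 and 0.071 CPM in KO, *Cfd* had 23.8, 27.5, 23.02 and 0.357 CPM, and *Retn* 6.97, 3.81, 2.53 and 0.071 CPM. *Ucp1* had 6.08, 14.8, 3.63 and 0 CPM and *Cidea* 4.23, 8.52, 1.20 and 0.143 CPM, so the 2 brown fat genes were low in the same library. The ratio of KO replicate 1 to KO replicate 2 was 64.2 for *Cfd*, and *Ucp1* was at least 33.7-fold higher in replicate 1. *Plin1* had 1.15, 0.372, 0.422 and 0 CPM, *Lep* 0.403, 0, 0.141 and 0 CPM and *Cidec* 3.46, 3.89, 1.73 and 0.214 CPM. *Pparg* had 2.53, 5.75, 2.92 and 1.75 CPM and varied least.

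For KO over WT in the kidney, 8 of the 9 genes were tested with edgeR and 0 were called, against 0% of all genes. DESeq2 called 0 of the 9. An unadjusted p under 0.05 was reached by 112 of all genes and, of the 9, by *Cidea* only, with a log2 fold change of -3.26 ± 1.03 and an adjusted p of 0.9999. The values were -1.41 ± 1.49 for *Adipoq*, -1.16 ± 1.49 for *Cfd*, -2.08 ± 1.33 for *Retn*, -1.94 ± 0.96 for *Cidec* and -2.54 ± 1.70 for *Ucp1*. For 6 of the 8, both KO values lay below both WT values (all but *Plin1* and *Pparg*), and 9.3% of all genes did so. Without KO replicate 2, the library with almost no fat RNA, the values shrank to -0.39 ± 1.03 for *Adipoq*, -0.15 ± 0.87 for *Cfd*, -1.09 ± 1.14 for *Retn*, -1.08 ± 1.18 for *Cidec*, -2.39 ± 1.23 for *Cidea* and -1.51 ± 1.10 for *Ucp1*. Leaving out 1 WT library or 1 KO library moved the calls. Without WT replicate 1, *Cidea* and *Pparg* were called lower in KO, in a fit that called 2938 of 18244 genes. Without KO replicate 1, *Cfd* and *Ucp1* were called lower and were the only 2 called of 18782 genes. Without WT replicate 2 (444 of 18771 genes called) or KO replicate 2 (1 of 18567), none of the 9 was.

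Replicate 2 against replicate 1 in the kidney gave 0 called of 8 with edgeR, where 0% of all genes were called and 679 had an unadjusted p under 0.05. DESeq2 was not run on this contrast. The list of shared adipocyte genes had sums of 3617, 6704, 6329 and 4723 CPM in WT replicates 1 and 2 and KO replicates 1 and 2, led by *Pck1* with 1442, 2739, 3027 and 1423 CPM, an enzyme of glucose synthesis in the proximal tubule. *Hoxc8* had 6.80, 2.03, 5.35 and 4.67 CPM in the kidney, an organ that expresses Hox genes itself, and did not follow *Adipoq* there. *Zic1* and *Lhx8* had 0 counts in all 4. The summed white fat list had 82.9, 120.8, 107.5 and 128.3 CPM in the kidney, led by *Tcf21*, and was highest in KO replicate 2. The summed brown fat list had 328.7, 504.4, 339.0 and 371.7 CPM, led by *Pank1*, and was not lowest in KO replicate 2. Mesothelial genes, summed, had 168.5, 313.7, 223.0 and 245.4 CPM and were not lowest in KO replicate 2.

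The small intestine had fat genes in both replicates 1 and almost none in both replicates 2, the opposite numbers to the heart. *Adipoq* had 438 and 2 counts in WT replicates 1 and 2 and 246 and 0 in KO, or 12.7, 0.079, 8.92 and 0 CPM. *Cfd* had 26.1, 0.397, 17.5 and 0.082 CPM, *Retn* 12.2, 0, 5.18 and 0.165 CPM and *Plin1* 2.12, 0.079, 1.74 and 0 CPM. *Lep* was at 66 counts, or 1.92 CPM, in WT replicate 1, its highest level of all 20 libraries, and at 0, 2 and 0 counts in the others. *Retn* was at least 124-fold higher in replicate 1 of WT, and *Adipoq* at least 79.5-fold higher in replicate 1 of KO.

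*Cidec* and *Pparg* went the other way in the small intestine. *Cidec* had 16.4 and 166.0 CPM in WT replicates 1 and 2 and 25.1 and 162.7 CPM in KO, with both replicates 2 above every other library of the study, and *Pparg* had 8.92, 81.0, 12.3 and 36.3 CPM. The replicates did not overlap for either gene. Both replicates 2 lay above both replicates 1 for 25.8% of all genes tested, and below them for 29%. Replicate 2 exceeded replicate 1 by ratios of 8.41 and 5.87 for *Cidec* and 7.53 and 2.67 for *Pparg* in WT and KO. In the libraries where *Adipoq* was at or near 0, *Cidec* was thus at its peak. *Cidea* had 0.058, 0.476, 0.290 and 0.619 CPM and *Ucp1* 0, 0, 0 and 0.165 CPM.

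In the fit of replicate 2 against 1 in the small intestine, 6 of the 7 genes tested were called, against 7.64% of all genes. Lower in replicate 2 were *Adipoq* (-8.01 ± 0.90, adjusted p = 0.0325), *Cfd* (-6.61 ± 0.59, adjusted p = 0.0229), *Retn* (-6.57 ± 1.33, adjusted p = 0.0934) and *Plin1* (-5.55 ± 1.13, adjusted p = 0.0926). Higher were *Cidec* (3.04 ± 0.25, adjusted p = 0.0198) and *Pparg* (2.39 ± 0.47, adjusted p = 0.0876). *Adipoq*, *Cfd*, *Retn* and *Plin1* had at most 10 counts in each replicate 2 and passed the filter on low counts through replicate 1. Their calls thus cannot be set against the 7.64% of all genes. The replicates differ in much else, as the values of *Alpi* show. Mesothelial genes, summed, had 1144, 561.6, 1192 and 432.3 CPM in WT replicates 1 and 2 and KO replicates 1 and 2, with 6 of 7 values below 0. Their most abundant gene, *Krt19*, which intestinal epithelium also expresses, was the only one called lower and had 1060, 505.3, 1052 and 326.7 CPM. Blood genes, summed, had 25.2, 60.8, 26.5 and 122.6 CPM (most abundant *Hbb-bs*), and 2 of 5 were called higher in replicate 2, against 7.64% called of all genes. The part of these differences was not tested. Of the shared adipocyte genes, 34 were tested, with 17 values above 0 and 17 below. Against 7.64% called of all genes, 7 were called higher in replicate 2 (*Pck1*, *Plin2*, *Cd36*, *Adipor2*, *Dgat2*, *Acsl1* and *Gpd1*), which enterocytes also use in lipid handling, and 6 were called lower (*Acvr1c*, *Fabp4*, *Lpl*, *Acaca*, *Fasn* and *Scd1*), with a median of -0.09. Of the white fat genes, 10 were tested, with 3 values above 0 and 7 below and a median of -0.76, and *Retn* and *Hoxc8* were called lower. Without the genes already described the median of that list was -0.37. Of the brown fat genes, 13 were tested, with 8 values above 0 and 5 below and a median of 0.49. Only *Prdm16* was called, higher in replicate 2, against 7.64% of all genes. The summed brown fat list had 89.0, 410.7, 201.4 and 380.7 CPM in WT replicates 1 and 2 and KO replicates 1 and 2. *Hoxc8* had 140 and 0 counts in WT replicates 1 and 2 and 367 and 0 in KO, or 4.07, 0, 13.3 and 0 CPM, so it was present in both replicates 1 and at 0 in both replicates 2, as *Adipoq* nearly was, although KO replicate 1 was the highest. *Hoxc9* had 0.29, 0, 0.69 and 0 CPM. *Hoxc8* too passed the filter on low counts through replicate 1. The replicates also differ in *Alpi*, and whether the RNA of *Hoxc8* and *Hoxc9* came from fat or from the gut itself was not tested. Between genotypes, 0 of the 7 were called, against 0% of all genes, with 422 genes at an unadjusted p under 0.05 and 0 of the 9 called by DESeq2. *Adipoq* had a log2 fold change of -0.58 ± 2.67 and *Cidec* of 0.02 ± 1.36.

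In the spleen, the 7 of the 9 genes that could be tested had higher values in both KO libraries than in both WT libraries, but none of them was called by edgeR. *Adipoq* had 4.48 and 0.679 CPM in WT replicates 1 and 2 and 9.34 and 9.46 CPM in KO. *Cfd* had 11.9, 3.34, 25.9 and 22.7 CPM and *Lep* 0.134, 0.104, 0.705 and 1.06 CPM, from 7, 4, 31 and 45 counts. *Lep* could be tested only through its counts in the KO libraries. *Retn* had 3.58, 1.46, 7.55 and 3.81 CPM, *Plin1* 0.958, 0.261, 1.11 and 1.67 CPM and *Cidec* 1.05, 1.10, 3.50 and 2.78 CPM. WT replicate 2, the library with *Alb*, was the lowest for *Adipoq*, *Cfd*, *Retn*, *Plin1* and *Lep*. *Pparg* had 5.75, 7.13, 9.73 and 7.83 CPM. Blood genes, summed, had 11700 and 15870 CPM in WT and 25980 and 29660 CPM in KO (most abundant *Hbb-bs*, 1 of 5 called, *Alas2*, which was picked after its values were seen). Mesothelial genes, summed, had 91.7, 40.6, 65.1 and 91.5 CPM, lowest in WT replicate 2 as for *Adipoq*. The part of either in these values was not tested. *Ucp1* (0.153, 0, 0.409 and 0 CPM) and *Cidea* (0, 0.104, 0.273 and 0 CPM) were not tested because their counts were low.

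Of the 7 genes tested in the spleen, 0 were called by edgeR for KO over WT, where 0.223% of all genes were called and 969 had an unadjusted p under 0.05. The log2 fold changes were 2.89 ± 0.63 for *Lep* (adjusted p = 0.229), 1.58 ± 0.37 for *Cidec* (adjusted p = 0.275), 1.91 ± 0.95 for *Adipoq*, 1.72 ± 0.65 for *Cfd*, 1.23 ± 0.65 for *Plin1*, 1.21 ± 0.50 for *Retn* and 0.48 ± 0.25 for *Pparg*. Both KO libraries lay above both WT libraries for all 7, where 14.7% of all genes did so. *Lep* passed the filter on low counts only through KO, where it is high, so its part in that count cannot be set against the share. DESeq2 called 1 of the 9, *Cidec*, with an adjusted p of 0.0367, and 208 genes in all. Without a filter on low counts, edgeR called *Lep*, *Retn* and *Cidec*, among 313 of 29979 genes. Without WT replicate 1, which leaves the *Alb*-rich library as the only WT library, *Adipoq* (3.79 ± 0.48) and *Cfd* (2.86 ± 0.36) were called higher in KO, in a fit that called 371 of 19970 genes, 301 of them lower. Without WT replicate 2, none of the 9 was called. In that fit the values shrank to 1.14 ± 0.38 for *Adipoq*, 1.10 ± 0.31 for *Cfd*, 0.61 ± 0.63 for *Plin1* and 0.72 ± 0.47 for *Retn*. That of *Lep* was 2.76 ± 0.91, near its value of 2.89 with all libraries.

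Of the shared adipocyte list in the spleen, 1 of 34 genes tested was called for KO over WT, where 0.223% of all genes were called. This was *Fabp4*, the fatty acid-binding protein of adipocytes and capillary endothelium. It had 15.7 and 15.6 CPM in WT and 39.4 and 34.4 CPM in KO, without overlap (log2 fold change 1.27 ± 0.17, adjusted p = 0.0839). The median of the list was -0.03 against 0.01 over all genes, and 0 of 12 white fat genes and 0 of 9 brown fat genes were called. The most abundant gene of the shared list, *Scd1*, had 303.8, 262.1, 235.7 and 243.0 CPM. Replicate 2 against 1 gave 0 called of 7 in the spleen, where 0.00531% of all genes were called and 364 had an unadjusted p under 0.05.

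The liver was almost free of fat RNA. *Plin1*, *Lep* and *Ucp1* had 0 counts in all 4 libraries, and *Adipoq*, *Cfd* and *Retn* had 0 counts in 3, with 2, 10 and 4 counts in KO replicate 2. *Cidec*, which liver cells use in fat storage, had 6.004, 9.49, 8.25 and 5.78 CPM and *Pparg* 7.47, 20.4, 13.1 and 11.9 CPM in WT replicates 1 and 2 and KO replicates 1 and 2, so the genotypes overlapped. *Cidea* had 0, 0, 0.194 and 0.147 CPM. Of the 9 genes, 2 were tested and 0 were called for KO over WT (*Cidec* -0.14 ± 0.35, *Pparg* -0.16 ± 0.44), against 0.0509% of all genes, with 739 at an unadjusted p under 0.05 and 0 of the 9 called by DESeq2. For replicate 2 against 1, 0 of the 2 were called, against 0.0699% of all genes, with 825 at an unadjusted p under 0.05.

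The balance of *Ucp1* and *Adipoq* differed between organs in the libraries with 100 or more *Adipoq* counts. It rests on these 2 genes. Other brown fat genes were mixed in the heart, where *Zic1*, *Lhx8* and *Elovl3* were at or near 0. In WT replicates 1 and 2 and KO replicates 1 and 2, *Dio2* had 3.54, 6.76, 3.45 and 4.69 CPM. *Ebf2* had 6.59, 10.3, 7.35 and 10.4 CPM and *Otop1* 0, 1.76, 0.150 and 0.190 CPM, higher in both replicates 2. Of the 15 brown fat genes tested there, 10 had a value above 0 and 5 below. As a share of the counts of *Ucp1* and *Adipoq* together, *Ucp1* made up 58.97% in heart WT replicate 2 (95% exact Clopper-Pearson interval 57.4 to 60.5) and 31.1% in heart KO replicate 2 (27.9 to 34.5). In the kidney it made up 45.2% (40.6 to 49.8) and 62.2% (58.1 to 66.1) in WT replicates 1 and 2 and 36.9% (31.2 to 42.9) in KO replicate 1. In the spleen it was 3.31% (1.44 to 6.41) in WT replicate 1, 4.196% (2.50 to 6.55) in KO replicate 1 and 0 of 402 counts, an upper limit of 0.913%, in KO replicate 2. In small intestine replicate 1 it was 0 of 438 counts in WT and 0 of 246 in KO, with upper limits of 0.839% and 1.49%. Among these libraries, the lowest share in the heart and kidney lay far above the highest in the spleen and small intestine, with intervals that did not meet. The difference between organs in the level of *Ucp1* itself was called over the 20 libraries (adjusted p = 0.00309), as it was for most genes. The intervals are too narrow where both mates of a pair were counted, and 56 of the 82 counts above 0 among the 6 fat genes were even numbers.

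**Figure D4:**
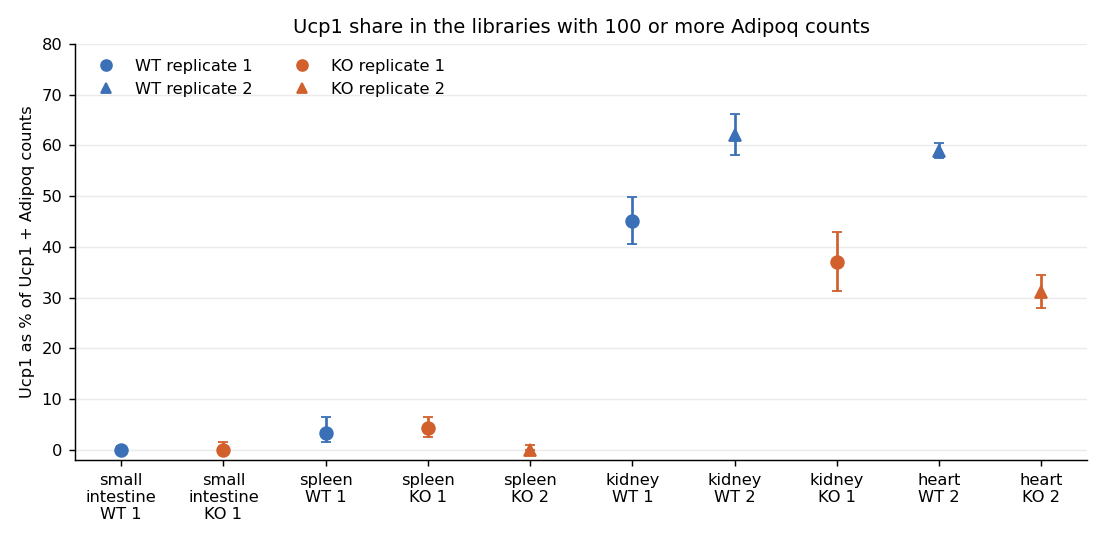
*Ucp1* as a percentage of the *Ucp1* and *Adipoq* counts in the 10 libraries with 100 or more *Adipoq* counts, with 95% exact Clopper-Pearson intervals that cover counting error only (blue WT, orange KO, circles replicate 1, triangles replicate 2). The 5 heart and kidney libraries lie between 31.1% and 62.2%, and the 5 spleen and small intestine libraries between 0% and 4.196%.

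Among these 10 libraries, *Cfd* and *Retn* kept the narrowest ratios to *Adipoq* by fold. Per length of exon, the level of *Cfd* was 2.94 to 5.64 times that of *Adipoq* (median 4.13) and that of *Retn* 0.304 to 0.841 times (median 0.439). That of *Plin1* was 0.0123 to 0.0924 times (median 0.0510), that of *Lep* 0 to 0.0620 times (median 0.0171) and that of *Cidec* 0.175 to 2.096 times (median 0.322). *Ucp1* ranged from 0 to 1.39 times. In TPM, which is counts per exon length scaled to 1000000 in each library, heart WT replicate 2 had 381.0 of *Cfd*, 160.2 of *Cidea*, 112.4 of *Ucp1*, 92.6 of *Adipoq*, 8.56 of *Plin1* and 0.508 of *Lep*. *Cfd* was thus above *Adipoq*, *Plin1*, *Lep*, *Retn* and *Ucp1* per length in all 10.

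Across all 20 libraries, with the mean of each organ removed, the log2 CPM of *Adipoq*, *Plin1*, *Cfd*, *Lep* and *Retn* correlated with each other at Pearson r from 0.748 to 0.981 over 10 pairs. *Ucp1* correlated with *Adipoq* at 0.587 and with *Cidec* at 0.854. With the organ means left in, these were 0.618 and 0.0626, so the value for *Cidec* depends on removing them. The r of *Cidea* or *Pparg* with the 5 genes lay between -0.401 and 0.173. These values describe 20 libraries that share organs and differ in depth.

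By mean level, the heart ranked first for *Adipoq* (15.0 ± 20.96 CPM, SD over 4 libraries), *Cfd* (44.0 ± 57.9), *Plin1* (4.48 ± 6.59), *Retn* (5.52 ± 7.06) and *Ucp1* (17.8 ± 31.8), in each case with an SD above the mean. *Lep* ranked first in the spleen (0.501 ± 0.464 CPM), ahead of the small intestine (0.497 ± 0.947). *Cidea* was highest in the heart (54.1 ± 15.0 CPM), followed by the kidney (3.52 ± 3.76), the small intestine (0.361 ± 0.242), the spleen (0.094 ± 0.129) and the liver (0.085 ± 0.1003). *Cidec* was highest in the small intestine (92.5 ± 83.0 CPM), followed by the heart (7.63 ± 9.27), liver (7.38 ± 1.80), kidney (2.32 ± 1.69) and spleen (2.11 ± 1.23). *Pparg* ran from the small intestine (34.6 ± 33.2 CPM) over the heart (15.4 ± 2.42), liver (13.2 ± 5.38) and spleen (7.61 ± 1.66) to the kidney (3.24 ± 1.75). Of 36 pairs of neighbours in these orders, the 4 libraries of each organ did not overlap in only 2, *Cidea* in the heart above the kidney and *Cidec* in the liver above the kidney. An edgeR test of any difference between organs called 8 of the 9 genes, all but *Lep* (adjusted p = 0.15), which is near the 92.9% called of all genes. The smallest adjusted p was that of *Cidea* (1.57e-07).

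Over all organs in 1 fit, 0 of the 9 genes were called between genotypes, against 0.00472% of all genes, with 468 at an unadjusted p under 0.05 and 0 of the 9 called by DESeq2. The log2 fold changes of KO over WT were between -1.70 ± 1.47 for *Ucp1* and -0.21 ± 1.04 for *Cfd*. The spleen and the kidney had opposite signs for *Adipoq*, *Plin1*, *Cfd*, *Retn*, *Cidec* and *Pparg*. The interaction of organ and genotype tests such differences, and edgeR called 0 of the 9 genes and 0% of all genes, with 535 at an unadjusted p under 0.05. The smallest unadjusted p of the 9 in that edgeR test was 0.0506, for *Cidea*. Without a filter on low counts, the interaction was called for 6 of the 9 genes (*Adipoq*, *Cfd*, *Retn*, *Cidec*, *Cidea* and *Ucp1*) and for 973 of 36620 genes. DESeq2 was not run on the interaction.

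**Figure D5:**
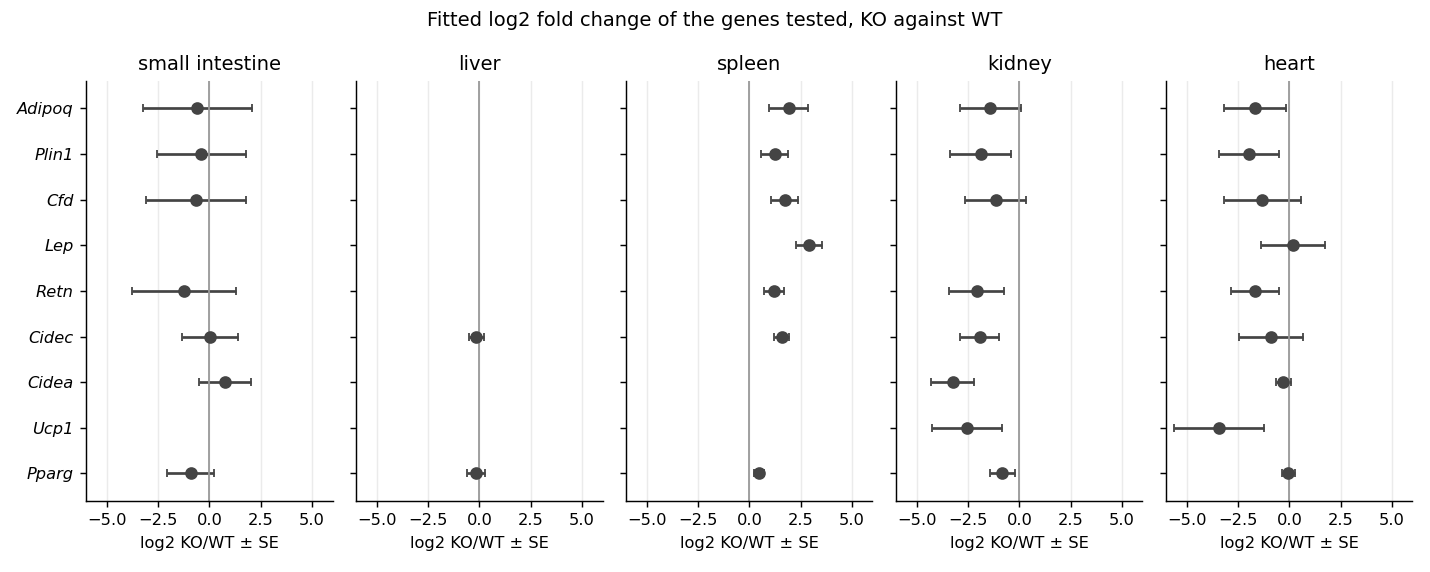
Fitted log2 fold change of KO over WT with its standard error (edgeR, horizontal bars) for each gene tested in each organ, with genes of too few counts left blank. Values in the spleen lie between 0.48 and 2.89 and those in the kidney between -3.26 and -0.84, and none was called.

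Outside the 9 genes, those most like *Adipoq* and *Ucp1* were ranked by Pearson r of log2 CPM over the 20 libraries after the mean of each organ was removed, among 21361 genes. The 9 themselves were left out of the ranking, in which *Cfd* (0.981), *Plin1* (0.938) and *Retn* (0.937) would have led for *Adipoq* and *Cidec* (0.854) would have been second for *Ucp1*. For *Adipoq* they were *Ankef1* (0.91), *Trim23* (0.85), *Fyb2* (0.85), *Trim67* (0.85), *Naip1* (0.84), *Acvr1c* (0.83), *Car3* (0.83), *Pold4* (0.82), *Ttk* (0.81) and *Lncbate1* (0.81). *Car3*, a carbonic anhydrase abundant in fat, had 1.74, 194.4, 2.02 and 62.6 CPM in heart WT replicates 1 and 2 and KO replicates 1 and 2, with replicate 2 above replicate 1 as for *Adipoq*. It had 41.5, 1.31, 29.8 and 1.32 CPM in the small intestine, with replicate 1 above replicate 2 as for *Adipoq*, and 1726 to 2540 CPM in the liver, where *Adipoq* was at or near 0. *Acvr1c*, an activin receptor of adipocytes, had 0, 2.80, 0 and 0.592 CPM in the heart and 16.2, 1.07, 25.3 and 1.48 CPM in the small intestine. For *Ucp1* they were *C3* (0.87), *Marco* (0.82), *Lncbate1* (0.81), *Klhdc9* (0.80), *Gm48194* (0.80), *Gm8712* (0.79), *Lmntd1* (0.79), *Gm29946* (0.79), *Adamdec1* (0.77) and *Enc1* (0.76). *Lncbate1*, a long noncoding RNA of brown fat, was in both lists, at 0.124, 0.659, 0 and 0.427 CPM in the heart. In the liver, where *Ucp1* had 0 counts and *Adipoq* was at or near 0, it had 3.79, 2.60, 1.75 and 1.73 CPM. Without removing the organ means, the leading 10 for *Adipoq* shared only *Ankef1* with this list, and those for *Ucp1* shared none.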

How the data were processed

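RNA-seq libraries of 5 organs from WT and KO mice were grouped by the organ, genotype and replicate number of the labels. After trimming (cutadapt) and mapping (HISAT2 2.1.0, mm10), the authors counted reads on exons of Ensembl genes (featureCounts 2.0.1) and deposited the raw counts. The deposited exon length in bases (an other kind of column, no measurement) served for values per length. The methods print a human build name and state reverse-stranded counting of read pairs, whereas the stored command holds no such options, and mates may have been counted separately.

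The 9 genes, their contrasts and the marker lists were chosen with earlier results of these data known. The genes named beyond them were the 10 most like *Adipoq* and *Ucp1*, the most abundant gene of each list described and list genes at 0, and any other was chosen after its values were seen. CPM values were computed after TMM normalization over all libraries, and replicate ratios from library totals with exact 95% intervals and a floor of 3 counts per library. Tests were edgeR 4.0.16 quasi-likelihood fits (R 4.3.3, limma 3.58.1) with filterByExpr and robust estimation, adjusted over all genes tested by Benjamini-Hochberg, called at 0.1 and a fold of 2. They were tested on simulated data. Alternatives were DESeq2 1.42.0, its size factors, other filters, a replicate block, single fits and each library left out. Python 3.11.15 with scipy 1.17.1 was used for intervals. Promoter sequences were from RefSeq (GRCm38.p6), and *Cidea* had none here.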

Additional observations from a re-analysis of the deposited data

How the results depend on the processing

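The spread between 2 libraries per group limited precision, and low counts kept *Lep* and *Ucp1* in the small intestine, *Ucp1* and *Cidea* in the spleen, *Lep* in the kidney and 7 of the 9 genes in the liver from being tested. With each library left out, the lone library of a group is assumed to vary like the others. Under these alternatives the number of the 9 genes called between genotypes stayed at 0 in the small intestine and liver. In the spleen it was 1 by DESeq2, 3 (*Lep*, *Retn* and *Cidec*) without a filter, and 0 to 2 with a library left out. In the kidney it was 0 to 2 with a library left out. In the heart it was 1 (*Ucp1*) with the replicate block. For heart replicate 2 against 1 it was 0 with at least 10 counts in every library, where only *Cfd*, *Cidea* and *Pparg* could be tested, 6 without the genotype term and 1 to 6 with a library left out. With the same filter the test between organs called 1 gene, *Pparg*, the only one tested, and without a filter the interaction called 6 (*Adipoq*, *Cfd*, *Retn*, *Cidec*, *Cidea* and *Ucp1*). Apart from the filters, which change the genes tested, the cause was not tested.

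Nothing in the labels says that a replicate number marks a shared animal, day or batch, and 2 pairs per organ are too few to show pairing. Deviations of same-numbered libraries correlated at 0.568 for small intestine, 0.038 for liver, 0.00496 for spleen, 0.124 for kidney and 0.363 for heart. The block changed no other call of the 9 genes and turned *Pparg* in the liver to 0.00025. *Cidec* in the small intestine became -0.0086 with DESeq2 and -0.0096 with its size factors.

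With a library left out, signs turned for these log2 fold changes of KO over WT. In the small intestine they spanned -10.49 to 5.67 (*Adipoq*), -7.96 to 3.32 (*Plin1*), -7.26 to 4.38 (*Cfd*), -5.19 to 9.07 (*Retn*), -1.96 to 2.50 (*Cidec*), -0.10 to 2.84 (*Cidea*) and -1.97 to 1.41 (*Pparg*), and in the liver -0.46 to 0.24 (*Cidec*) and -0.73 to 0.76 (*Pparg*). In the heart they spanned -3.90 to 3.66 (*Adipoq*), -5.59 to 2.52 (*Plin1*), -4.21 to 5.07 (*Cfd*), -5.90 to 6.18 (*Lep*), -3.85 to 1.25 (*Retn*), -4.50 to 4.41 (*Cidec*), -0.87 to 0.12 (*Cidea*), -12.50 to 4.50 (*Ucp1*) and -0.26 to 0.25 (*Pparg*). For heart replicate 2 against 1, *Cidea* spanned -0.90 to 0.087. In the spleen they spanned 1.14 to 3.79 (*Adipoq*), 0.61 to 2.41 (*Plin1*) and 0.63 to 1.95 (*Retn*), and in the kidney -6.79 to -0.39 (*Adipoq*), -6.18 to -0.15 (*Cfd*) and -11.24 to -1.51 (*Ucp1*), where signs did not turn. The other signs in these 2 organs, and those of the other 8 genes in heart replicate 2 against 1, did not turn.

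All genes called between genotypes numbered 0 by edgeR in the small intestine and 51 by DESeq2. In the liver the numbers were 8 by edgeR, 53 by DESeq2, 122 without a filter, 20 with the block, 0 in the fit of all libraries and 2 to 205 with a library left out. In the spleen they were 42, 208 by DESeq2, 313 without a filter, 105 with at least 10 counts, 0 in the fit of all libraries and 0 to 371 with a library left out. In the kidney they were 0, and 1 (without KO replicate 2) to 2938 (without WT replicate 1) with a library left out. In the heart they were 0, 3 by DESeq2, 13 without a filter, 6 with the block and 0 to 22 with a library left out, over all organs 1, 4 by DESeq2 and 0 with the block, and for the interaction 0 and 973 without a filter.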
